A study of Rattus with 9 samples.

Results

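Mast cells and basophils of the rat bile duct were picked out of a single-cell RNA data set by their own transcripts. A barcode was kept as a cell when it had more than 400 and fewer than 6000 genes detected, under 25% mitochondrial counts and under 3% hemoglobin counts. A kept cell was a member when at least 2 of Cpa3, Ms4a2, Tpsb2 and Fcer1a had a UMI (a unique molecular identifier, 1 counted RNA molecule) and when Cd3e, Cd79b, Csf1r, Epcam and Lum had none. The rule found 188 members among 150379 kept cells, a share of 0.125%. Of these, 84 cells had all 4 marker genes, 77 had 3 and 27 had 2. Members were thus chosen by the detection of these 9 genes, and their levels in members against other cells are a description and were not tested.

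The study compared bile ducts of sham-operated rats with those of rats after liver transplantation (LT). The rats were Sprague-Dawley animals of both sexes, 6 to 8 weeks old, and the transplants, named ctrl in the labels and LT here, had 30 minutes of warm ischemia. A further transplanted arm, named treat in the labels and LT_flow here, shared this injury and also had the splenic and gastroduodenal arteries tied, which raises flow in the hepatic artery. There were 3 sham samples of 1 library each, and 1 sample per day (1, 3 and 7) in each transplanted arm, with 3 libraries each except LT_flow day 3, for which 2 were used. The labels leave unsaid if libraries and samples stand for separate animals, so the p-values measure the spread between these samples, and within an arm the 3 samples differ in day. The ducts were digested with enzymes, red blood cells were lysed and dead cells were removed before loading.

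Mast cells live in connective tissue and mucosa, near vessels, nerves and ducts, and basophils are their circulating relatives. Both bind IgE through a high-affinity receptor whose chains are encoded by Fcer1a, Ms4a2 and Fcer1g, and both store histamine and proteases in granules that are released when the receptor is crosslinked. Mast cells mature in tissue under the receptor Kit, and rodents have many mast cell chymases (Mcpt genes), tryptases (Tpsb2, Tpsab1) and carboxypeptidase A3 (Cpa3). In rats, the chymase known as rMCP-1, with tryptase, is classically described in connective tissue mast cells, and rMCP-2 in mucosal ones.

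The samples held 21270647 to 290590249 UMIs in all barcodes and 2456 to 34192 kept cells. Members had a median of 2046.5 UMIs and 856 genes. Their medians ran from 1502 UMIs in LT_flow day 3 to 4479 in LT_flow day 7. Pairs of libraries shared at most 1.19% of the kept barcodes of the smaller one and no member barcode, and 3 members (1.60%) were marked by a doublet score. Summed members gave 13209 to 196640 UMIs per sample, so that 3 UMIs stood for 15.3 to 227 CPM (UMIs of a gene per 1000000 UMIs summed), and levels below that cannot be told from 0. Counting intervals given here cover counting error alone.

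The label held for genes that the rule did not use. Kit, the stem cell factor receptor, was found in 128 members at 532 CPM, against 3.49 CPM in other leukocytes (kept cells with a UMI of Ptprc, the CD45 gene). Hdc, which makes histamine, was at 1014 against 2.52 CPM, and Tph1, which starts serotonin synthesis, at 942 against 1.38 CPM. Cma1, a chymase, was found in 180 members at 33451 against 12.7 CPM. Ptprc itself had a UMI in 76 members. At the edge of the rule, the 27 members with 2 marker genes had 24141 CPM of Cma1 and 686 of Kit, with 117 CPM of the neutrophil gene S100a9, 1506 of the phagocyte gene Lyz2, 736 of Cd74 (MHC class II) and 703 of Col3a1 (a fibroblast collagen). The 139 kept cells with 1 marker gene and the same 5 genes at 0 had 142 CPM of Cma1 and 19.8 of Kit, with 11256, 6289, 3553 and 408 CPM of the same 4 genes. Cells just inside the rule thus, when summed, carried Cma1 and Kit, which it did not use, beside transcripts of other cell types. They were a mix, with 3312 CPM of Prg2 and 1573 of Prss34, genes of the basophil-like cells described below, which had no Kit. Of those 27 members, 1 cell held 77 of 90 UMIs of Lyz2, 1 held 34 of 44 of Cd74 and 1 held 36 of 42 of Col3a1, and without that cell these genes stood at 234, 180.1 and 102 CPM. Cpa3 is left out here because the rule used it.

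Transcripts of most other cell types were lower in members than in other kept cells, and varied between samples. Pooled over samples, the exceptions were the T and NK cell (1005 against 647 CPM), platelet (1041 against 130), eosinophil (1211 against 8.4) and dendritic cell lists (13.7 against 4.49). The eosinophil list reached 4888 CPM in LT day 7, and its gene Prg2 is described with the basophil-like cells. The summed neutrophil list (9 genes) ranged from 0 to 6359 CPM, highest in LT day 3, where 59 of 62 S100a9 UMIs came from 1 cell. The macrophage list (9 genes, Mrc1 at 0) ranged from 0 to 1666 CPM. The fibroblast list (5 genes) ranged from 0 to 2459 CPM and the epithelial list (6 genes, Krt19 at 0) from 17.5 to 1324 CPM, both highest in sham 2. In that sample, free RNA from broken cells was estimated at 18.5% of member UMIs, from 60 UMIs of 5 fibroblast and epithelial genes, against 0% to 5.95% elsewhere. Col3a1 gave 41 of those 60 UMIs, and 36 of the 41 lay in 1 member, so this estimate rests largely on 1 cell. Endothelial (5 genes), smooth muscle (4) and dendritic cell (4, Flt3 and Zbtb46 at 0) lists stayed at or under 70.8 CPM. The T and NK cell list (8 genes, 454 to 1473 CPM) is described with the clusters, where Nkg7 and Cd7 were found in mast-like and basophil-like cells. Of the platelet list (4 genes), Pf4 (platelet factor 4) was found in 124 members while Ppbp and Itga2b were at 0 in all 188. The remaining gene, Gp9, was found in 2, 14 and 9 cells of clusters 0, 1 and 2, which are described below.

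Members were more frequent in every LT_flow sample than in any sham or LT sample. They made up 0 of 2456 kept cells in sham 1, which allows a share of up to 0.122% by the limit of 3 cells and up to 0.15% by the exact 95% interval, 10 of 9971 in sham 2 (0.1%) and 7 of 11980 in sham 3 (0.0584%). In LT, day 1 had 7 among 13791 (0.0508%), day 3 had 6 among 8147 (0.0736%) and day 7 had 29 among 34192 (0.0848%). In LT_flow, day 1 had 61 among 24320 (0.251%), day 3 had 25 among 17679 (0.141%) and day 7 had 43 among 27843 (0.154%). The sham and LT samples overlapped, and the LT_flow samples lay above both, though the interval of sham 1 reached past LT_flow day 3. The exact 95% intervals of sham 2 (up to 0.184%) and LT day 3 (up to 0.16%) reached past both LT_flow day 3 and LT_flow day 7. The 5 genes required at 0 removed 92 of 280 cells with at least 2 marker genes. Without that requirement the shares were 0.16% and 0.125% in sham 2 and sham 3, at most 0.11% in LT, and 0.432%, 0.164% and 0.212% in LT_flow, so that LT_flow day 3 lay close to sham 2. The hemoglobin limit removed 6548 barcodes of LT day 3 and left 2 of its libraries with 437 and 337 kept cells, and without that limit its share was 0.0408%.

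**Figure D1:**
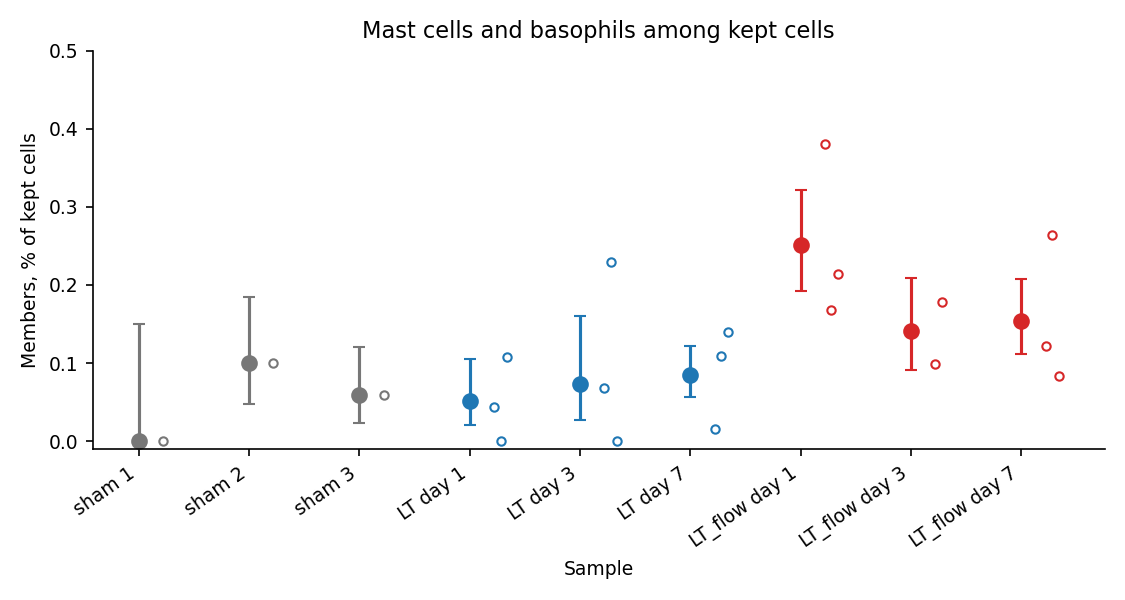
Members as a percentage of kept cells (y axis) in each sample (x axis); filled points are samples with exact 95% binomial intervals and open points are their libraries. The 3 LT_flow samples sit at 0.141% to 0.251%, above the highest sham or LT sample at 0.1%, while their libraries (0.0833% to 0.381%) overlap those of LT (0% to 0.229%).

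Group means were 0.0529% ± 0.0504 in sham, 0.0697% ± 0.0174 in LT and 0.182% ± 0.0598 in LT_flow (SD, n = 3 each). The LT_flow mean exceeded the sham mean by 0.129 percentage points and the LT mean by 0.112. Each difference had p = 0.1 in a two-sided exact permutation test, the smallest value that 3 against 3 samples allow, and 0.15 after Benjamini-Hochberg adjustment over 3 comparisons. LT exceeded sham by 0.0168 points (exact permutation p = 0.8), a difference smaller than the SD of the sham samples, and without sham 1, which had few cells, LT was lower by 0.00962 points. Cell recovery enters these shares. Per 100 Ptprc-positive kept cells, members numbered 0, 0.573 and 0.406 in sham, 0.167, 0.124 and 0.148 in LT, and 0.763, 0.304 and 0.282 in LT_flow. On that scale LT was below sham by 0.18 (exact permutation p = 0.4), LT_flow was above sham by 0.123 (p = 0.6, exact permutation) and above LT by 0.303 (p = 0.1, exact permutation), so LT against sham changed sign, the LT_flow and sham samples overlapped, and the LT_flow samples still lay above those of LT.

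Granule proteases and their partners led the genes of the members, in part by the rule, which used Cpa3, Tpsb2, Ms4a2 and Fcer1a. The 20 genes with the highest mean log2 ratio to other kept cells were taken, a choice made on these values. They included the carboxypeptidase Cpa3, the chymases Cma1, Mcpt1, Mcpt1l1 and Mcpt1l4, the proteases Mcpt8l2 and Mcpt8l3, and the tryptases Tpsb2 and Tpsab1. They also held both specific IgE receptor chains, Hdc, Tph1, Hpgds (prostaglandin D synthase), Kit and Gata2 (a transcription factor that both lineages need), with Mrgprb3 (a receptor of the Mas-related family), Syngr1, RGD1564571 and Cd72. Cpa3 stood at 31303 and 32062 CPM in sham 2 and sham 3, 37216, 23317 and 28901 in LT at days 1, 3 and 7, and 24446, 37335 and 34840.3 in LT_flow at the same days. Cma1 stood at 24589 and 21728 CPM in sham 2 and sham 3, 49799, 19532 and 35874 in LT at days 1, 3 and 7, and 25979, 36087 and 37841 in LT_flow at the same days. In LT day 3, with 6 members, 211 of 308 UMIs of Cpa3 came from 1 member, and 130 of 258 UMIs of Cma1 from 1 member. In each sample both levels were far above those of other leukocytes (0.222 to 58.3 and 0 to 53.5 CPM). For Cpa3 this is a description, since the rule chose members by that gene.

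Other proteases varied more between samples. Mcpt1l1 stood at 30925 and 51454 CPM in sham 2 and sham 3, 7564, 45121 and 26544 in LT at days 1, 3 and 7, and 30174, 66967 and 41955 in LT_flow at the same days. Mcpt1 stood at 14186 and 13589 CPM in sham 2 and sham 3, 13788, 0 and 50373 in LT at days 1, 3 and 7, and 4969, 20341 and 49705 in LT_flow at the same days, so that no member of LT day 3 had it while day 7 of both arms was highest. In LT_flow day 3, 1132 of 1434 UMIs of Mcpt1 came from 1 member, and without it the level was 5453 CPM. In sham 3, 147 of 192 UMIs of Mcpt1 came from 1 member, and without it the level was 3959.9 CPM. Tpsb2 stood at 4681 and 3963 CPM in sham 2 and sham 3, 1205, 9917 and 2129 in LT at days 1, 3 and 7, and 8173, 6965 and 4043 in LT_flow at the same days, lowest where Mcpt1l1 was lowest, in LT day 1. There 15 of 18 UMIs of Tpsb2 and 71 of 113 of Mcpt1l1 came from 1 member each, with levels of 214 and 2999 CPM without it. Mcpt4, a further chymase, was at 0 in sham 2, sham 3 and LT day 3, at 66.9 and 385 CPM in LT days 1 and 7, and at 65.1, 42.6 and 1287 CPM in LT_flow. In LT_flow day 7, 188 of 253 UMIs of Mcpt4 came from 1 member, and without it the level was 358 CPM. In LT day 7, 18 of 44 came from 1 member, and without it the level was 238 CPM. In the RefSeq table of assembly GRCr8, where 16 of 18 protease and other names looked up matched by symbol, Mcpt1 carries the older names rMCP-1 and rMCP-2, and Mcpt1l1 carries rMCP-1. The same table places the chymase genes in 1 run of 18 protein-coding genes from Cma1 to Ctsg, of which 8 were among the features, and Prss34, Prss29, Tpsab1, Tpsb2 and Tpsg1 next to each other in that order. Mcpt1, Mcpt1l1, Mcpt1l3 and Mcpt1l4, Mcpt8l2 and Mcpt8l3, and Tpsb2 and Tpsab1 are closely related copies whose reads could be assigned to each other, so their separate levels are uncertain. Mcpt2, Mcpt3, Mcpt4l1, Mcpt8, Mcpt9 and Mcpt10 were not analysed here.

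**Figure D2:**
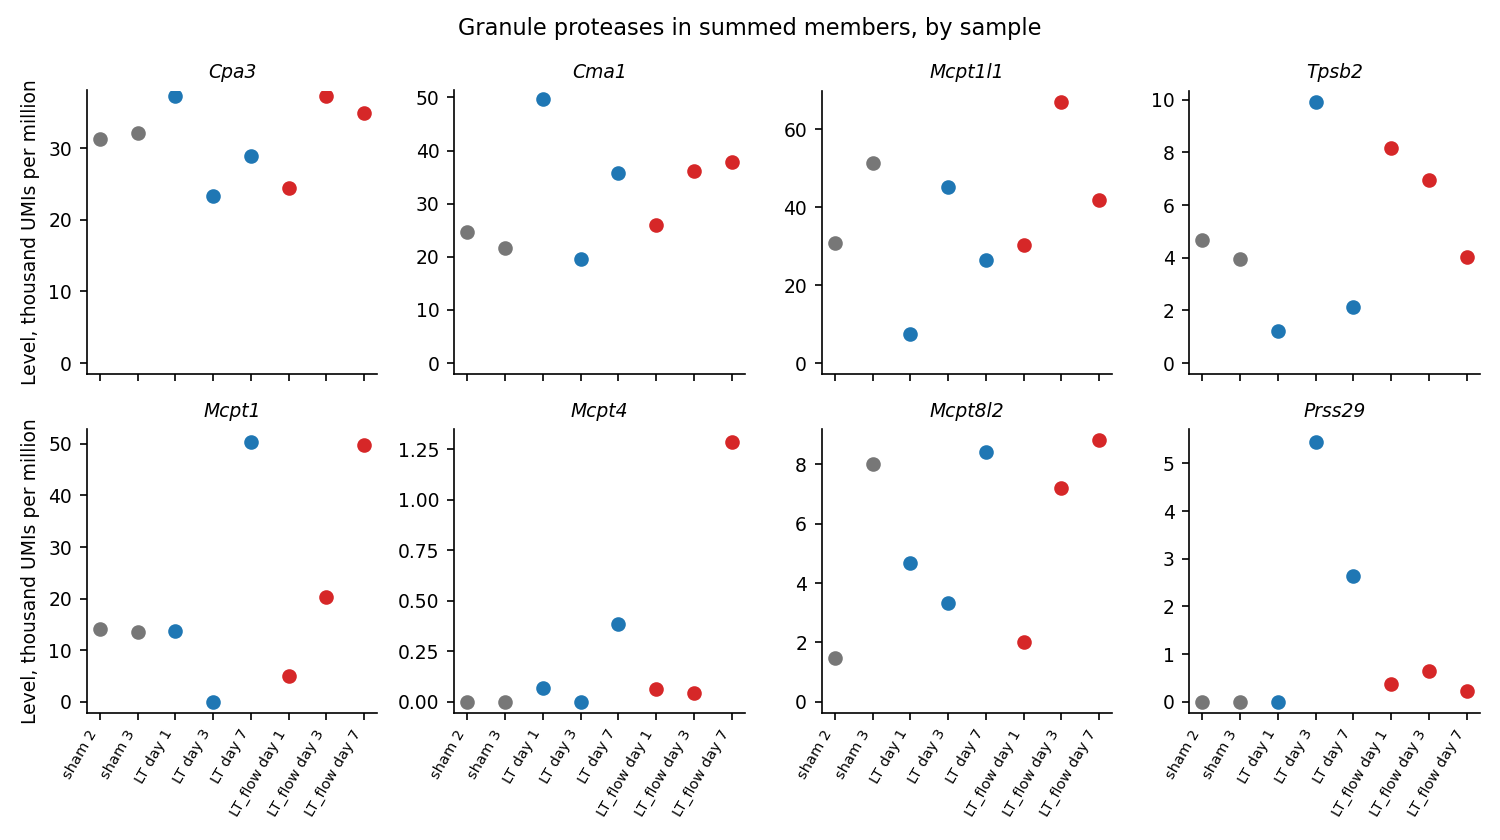
Level of 8 protease genes in summed members (y axis, in units of 1000 CPM, each panel with its own scale) in the 8 samples that held members (x axis), gray for sham, blue for LT and red for LT_flow. Cpa3 and Cma1 are present in all 8 samples, Mcpt1 is at 0 in LT day 3, and Prss29 is at 0 in sham. Mcpt4 in LT_flow day 7 rests largely on 1 cell with 188 of 253 UMIs (358 CPM without it). In LT day 7 it falls from 385 to 238 CPM without the cell that held most.

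Clustering of the 188 members gave 4 clusters. Cluster 0 (72 cells, median 3484 UMIs) was led among members by Mcpt1, Mcpt4, Mcpt8l2, Nkg7 and Gzmbl2, the last pair being genes of cytotoxic granules. Its Mcpt1 level was 55994 CPM, against 4259.6 and 1623 in clusters 1 and 2, and its Tpsb2 level was 475 against 13323 and 9126 CPM. Cluster 1 (65 cells, 1496 UMIs) was led by the chemokine Ccl21, which was in 3 of its cells, followed by the chemokine Ccl7, Rcan1, Tpsb2, Pmp22 and Ccl2, with Tpsab1 and Mcpt1l1 among its first 10. Cluster 2 (41 cells, 1566 UMIs) also had Tpsb2 and Mcpt1l1 (43692 CPM), and was led by Slpi, S100a8, S100a9 and MHC class II genes. These leading genes rested on few cells, since 1116 of 1127 Slpi UMIs in LT_flow day 1 came from 1 member, as did 206 of 207 RT1-Db1 UMIs. Each of these 3 clusters had 8 of 9 mast cell markers detected, or 6 of 7 without Cpa3 and Tpsb2, which the rule used, and was called mast-like. Cluster 3 (10 cells, 2050.5 UMIs) had 5 of 7 basophil markers and was called basophil-like. Of the 5, Mcpt8l2 and Mcpt8l3 were also found in 67 and 69 of the 72 cells of cluster 0. Nkg7 and Gzmbl2 were not particular to cluster 0 (838 and 421 CPM), since they stood at 889 and 657 CPM in cluster 3. Of the T and NK cell list, Cd7 was at 150 CPM in cluster 0 and 1817 in cluster 3, and Klrk1 was highest in cluster 1 (530 CPM).

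The basophil-like cells had no UMI of Kit, Tph1, Hpgds, Tpsb2, Tpsab1 or Mcpt1l1. All 10 had Prss29 (19484 CPM), Mcpt8l2 (19252), Mcpt8l3 (49211), Mcpt1l4 (17744) and Hdc (4098). Prss34, a basophil serine protease, was found in 8 of them at 9587 CPM. Prg2, which encodes a granule protein shared with eosinophils, was found in 9 at 27022 CPM, while the eosinophil gene Epx had 3 UMIs in 1 cell and Ear1 none. The cytokine gene Il4 was found in 4 of the 10 and Osm (oncostatin M) in 9. The specific IgE receptor chains Ms4a2 and Fcer1a, genes of the rule, were each found in 9 of 10. Without Tpsb2, each of these cells needed at least 1 of the 2 to be a member. These genes describe the clusters and were not tested.

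**Figure D3:**
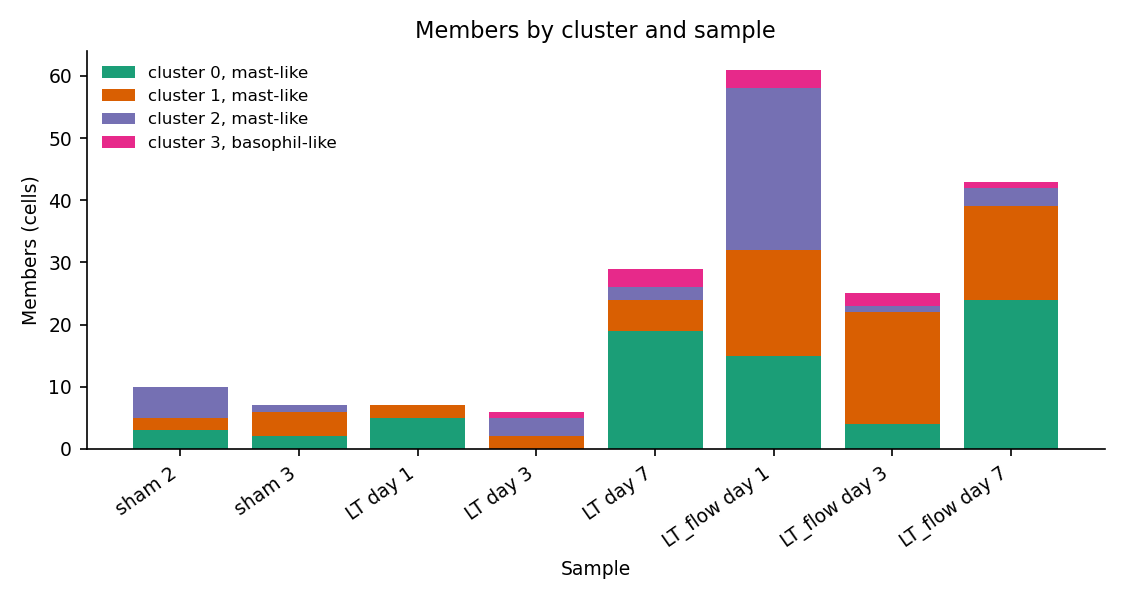
Number of members (y axis) in each sample (x axis), split by cluster; clusters 0 to 2 are mast-like and cluster 3 is basophil-like. Of the 41 cells of cluster 2, 26 are from LT_flow day 1, and the 10 basophil-like cells come from transplanted samples.

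The clusters were spread unevenly over the samples. Cluster 0 held 3 of 10 members in sham 2, 2 of 7 in sham 3, 5, 0 and 19 of 7, 6 and 29 in LT, and 15, 4 and 24 of 61, 25 and 43 in LT_flow. Cluster 1 held 2 and 4 members in sham 2 and sham 3, 2, 2 and 5 in LT, and 17, 18 and 15 in LT_flow. In cluster 2 there were 5 and 1 in sham, 0, 3 and 2 in LT, and 26, 1 and 3 in LT_flow. Basophil-like cells numbered 0 in sham 2 and sham 3, 0, 1 and 3 in LT, and 3, 2 and 1 in LT_flow. Over all 17 sham members the count of 0 allows a basophil-like share of up to 17.6%, above the 9.52% of LT and the 4.65% of LT_flow, so their absence from sham was not detectable at this depth. The mast-like share of members was 100% in both sham samples, 91% ± 8.41 in LT and 94.9% ± 2.84 in LT_flow (SD, n = 3). LT was 9 points below sham (p = 0.4) and LT_flow 5.08 points below (p = 0.2), and LT_flow was 3.92 points above LT (p = 0.5; exact permutation tests, each 0.5 after adjustment). With 2 sham samples against 3, the smallest p the test allows is 0.1. This share also depends on the rule, which used the mast cell markers Cpa3 and Tpsb2, found in 6 and 0 of the 10 basophil-like cells. With at least 3 markers it went from 89.7% to 95.5% in LT day 7, and was 98.1, 95.7 and 100% in LT_flow. The part of the rule in these differences was not tested.

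Mast-like cells with and without tryptase transcripts differed in their other proteases. This split was chosen after the values were seen and uses Tpsb2, a gene of the rule, so a cell with Tpsb2 needed 1 other marker gene to be a member. The numbers of cells on each side and their depth thus depend on the rule, and are given as a description. Of 178 mast-like members, 128 had a UMI of Tpsb2 or Tpsab1 and 50 had none, with medians of 1656 and 4137.5 UMIs. Among the 50, 46 had Mcpt1, and among the 128, 54 did. In summed cells without and with tryptase, Mcpt1 stood at 55588 and 15062 CPM, Mcpt4 at 1193 and 54.6, and Mcpt8l2 at 10927 and 1794. The opposite order held for Mcpt1l1 (10988 and 62795 CPM), Mrgprb3 (8.15 and 725), Ccl2 (1857 and 41284), Rcan1 (73.3 and 934) and Ptgs2 (48.9 and 690.1). Cpa3 (33147 and 31848) and Ms4a2 (1177 and 1457) were close in both. The rule used these genes, and a cell without Tpsb2 needed more than 1 of the other marker genes to be a member. Their levels on each side thus depend on the rule and cannot show a likeness of the sides. Of the 50 cells without tryptase, 21 had Mcpt4, and 1 cell of LT_flow day 7 held 188 of their 293 UMIs. Without that cell the level was 456 CPM. The cells without tryptase were thus higher in Mcpt1 and the protease Mcpt8l2, and those with tryptase in Mcpt1l1 and a chemokine, Ccl2. Mcpt8l2, listed as a basophil marker, was found in 48 of the 50 cells without tryptase and in 73 of the 128 with it.

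**Figure D4:**
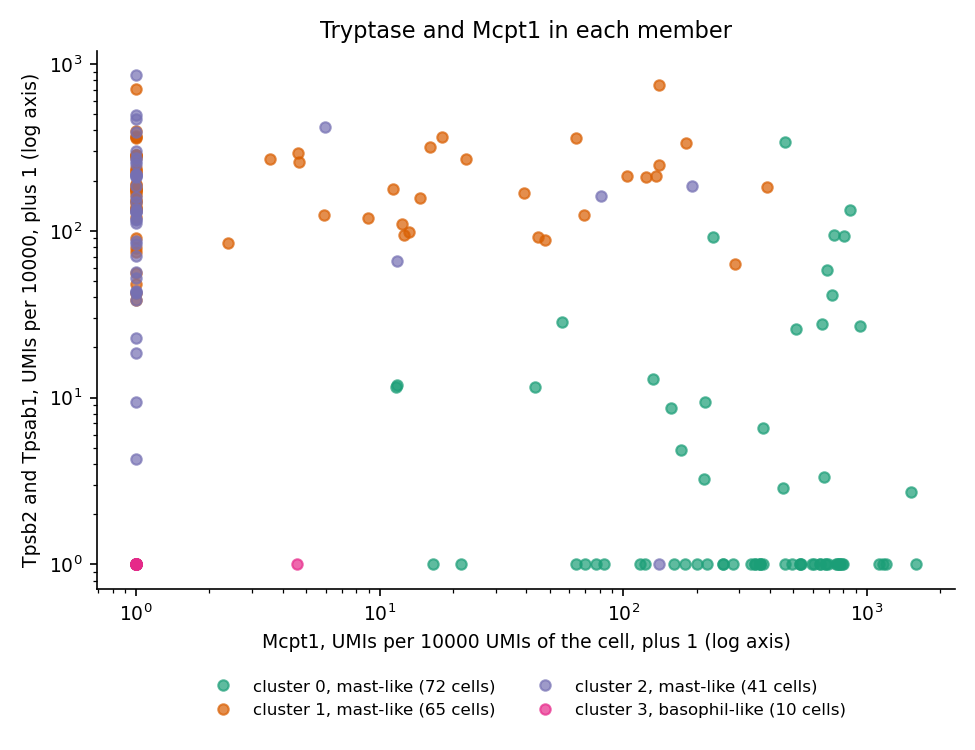
Tryptase (Tpsb2 plus Tpsab1, y axis) against Mcpt1 (x axis) in each of the 188 members, both as UMIs per 10000 UMIs of the cell plus 1 on log axes, colored by cluster. Of the 72 cells of cluster 0, 68 have Mcpt1 and 49 lie on the line without tryptase, all 65 of cluster 1 and 40 of 41 of cluster 2 have tryptase, and 9 of 10 basophil-like cells lie at the lower left corner with neither, as do 4 cells of cluster 0.

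The share of mast-like members with tryptase, which counts a gene of the rule and is a description, ran from 28.6% to 100%. It was 7 of 10 in sham 2 and 5 of 7 in sham 3. In LT, 2 of 7 had it on day 1, all 5 on day 3 and 16 of 26 on day 7. In LT_flow it was 48 of 58, 22 of 23 and 23 of 42 at the same days. Day 7 of LT_flow was the lowest of its arm and day 1 the lowest of LT. When each cell was thinned to 600 UMIs, the shares were 62.7% and 70.8% in sham, 28.5, 99.8 and 54.6% in LT and 77.3, 88.9 and 47.5% in LT_flow, in the same order within each arm. Mcpt1 was found in 30% and 57.1% of mast-like members in sham, 57.1, 0 and 80.8% in LT and 29.3, 56.5 and 90.5% in LT_flow, and thinned in 30%, 51%, 53.1, 0 and 79.3% and 25.1, 43 and 83.3%. With 5 to 58 cells per sample, these are shares of few cells, and thinning the chosen cells does not undo the use of Tpsb2 in choosing them.

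Among genes of the IgE receptor and its proximal signaling, all 17 had a UMI in members. The levels of Ms4a2 and Fcer1a are a description, since the rule chose cells by them. Ms4a2, the beta chain, stood at 946 and 1345 CPM in sham 2 and sham 3, 2343, 1438 and 1016 in LT at days 1, 3 and 7, and 1714, 1248 and 1159 in LT_flow at the same days. Fcer1a, the alpha chain, stood at 567 and 849 CPM in sham 2 and sham 3, 1071, 1287 and 1060 in LT at days 1, 3 and 7, and 1005, 1475 and 956 in LT_flow at the same days. Fcer1g, the gamma chain that other myeloid cells share, ranged from 1132 to 2574 CPM, within the 905 to 2708 CPM of other leukocytes or close to it. Milr1, an inhibitory mast cell receptor, ranged from 70.8 to 535 CPM, against 7.48 to 19.6. Of the 8 genes of this list tested that the rule did not use, 0 passed in either direction at 10 members per sample in LT against sham, LT_flow against sham or LT_flow against LT. Over all 2195 genes tested, 0.228%, 0.137% and 0.273% passed.

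For granule content and amine synthesis, Srgn, the proteoglycan core of the granule, was in 187 of 188 members at 6336 to 13868 CPM, against 468 to 1755 in other leukocytes. Cd63, a granule membrane protein, ranged from 3233 to 5890.2 CPM and Slc18a2, which loads histamine and serotonin into granules, from 42.6 to 602 CPM, against 0.267 to 0.921 in other leukocytes. Hdc stood at 709 and 920.1 CPM in sham 2 and sham 3, 1272, 1514 and 946 in LT at days 1, 3 and 7, and 1215, 1219.9 and 824 in LT_flow at the same days. Tph1 ranged from 201 to 1769 CPM, lowest in LT day 1 and highest in sham 3. Of the enzymes for heparin, Ext1 and Hs3st1 were found in 48 and 34 members, and Ndst1 and Ndst2 in 0. The 12 granule genes and the 9 genes of amine and heparin synthesis gave 7 and 4 tested genes at 10 members per sample, and 0 of these passed in any group comparison.

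Genes of eicosanoid synthesis, which makes leukotrienes and prostaglandins from arachidonic acid, were carried by 182 members. Alox5ap and Alox5, for leukotrienes, ranged from 520.1 to 2271 and 70.8 to 736 CPM. Hpgds ranged from 134 to 804 CPM, against 1.71 to 14.5 in other leukocytes. Ptgs2, the inducible cyclooxygenase, stood at 1466 and 2689.5 CPM in sham 2 and sham 3, 0, 529.9 and 280.3 in LT at days 1, 3 and 7, and 600.3, 511 and 244 in LT_flow at the same days. Both sham samples were above all transplanted samples for Ptgs2, though 23 of 31 UMIs in sham 2 came from 1 member (461 CPM without it, under LT day 3 and LT_flow days 1 and 3). It did not pass the test (LT against sham, samples of at least 5 members, log2 fold change -2.99 ± 0.69 (SE), edgeR adjusted p = 0.0858). Ptges was at 0, and 0 of the 6 genes tested at 10 members per sample passed.

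Of 23 cytokine and chemokine genes, 17 had a UMI in members, and Ccl2, which attracts monocytes, was by far the most frequent, with 13356 UMIs in 155 members. It stood at 70314 and 92292 CPM in sham 2 and sham 3, 7095, 28389.7 and 5808 in LT at days 1, 3 and 7, and 29812, 37236 and 13598 in LT_flow at the same days. In other leukocytes it ranged from 384 to 3343 CPM, and in each sample members were above them. Both sham samples were above all transplanted ones, and LT days 1 and 7 were the lowest. In sham 2 all 10 members had it and the cell with most held 578 of 1487 UMIs. Ccl7, a related chemokine, was found in 36 members, Tgfb1 in 76 and Osm in 68. Il5, Il6, Il9, Il10, Csf2 and Ccl1 were at 0 in all members.

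Among 31 receptor genes, Kit stood at 142 and 354 CPM in sham 2 and sham 3, 870.1, 833 and 324 in LT at days 1, 3 and 7, and 803, 454 and 498 in LT_flow at the same days. The sham samples were at or below the LT_flow samples, and LT day 7 lay between sham 2 and sham 3. None of the 3 group comparisons was called for Kit (LT_flow against sham, samples of at least 5 members, log2 fold change 1.25 ± 0.62 (SE), edgeR adjusted p = 0.527). Il18r1, Il4r and Il3ra, receptors for interleukins that act on these cells, were found in 75, 76 and 63 members. Mrgprb3 ranged from 158 to 908 CPM. Of 12 lineage transcription factors, Gata2 ranged from 199 to 709 CPM, Runx3 from 0 to 212, Fli1 from 30.5 to 142 and Mitf, which sustains Kit expression, from 0 to 303. In the 10 receptor and 6 factor genes tested at 10 members per sample, 0 passed.

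Of the other lists, immediate early genes were carried by 187 members, at 1362 to 5379 CPM for Junb, 1358 to 3963 for Jun and 284 to 2271 for Egr1. Summed over 15 genes they gave 14753 and 18260.3 CPM in sham 2 and sham 3, 11981, 16125 and 6649 in LT at days 1, 3 and 7, and 14241, 6383 and 6138 in LT_flow at the same days, so that both sham samples, LT days 1 and 3 and LT_flow day 1 were above LT day 7 and the later LT_flow samples. The same 15 genes ranged in free RNA from 0 to 39.9 expected UMIs per sample. Hypoxia and glycolysis genes (15, with Ldha, Aldoa, Ndrg1 and Hif1a most abundant) summed to 2669.8 to 5087 CPM and heat shock genes (6, with Hspa8, Hsp90aa1 and Dnajb1) to 1622 to 6961 CPM, both highest in LT day 1. MHC class II genes (6, Cd74, RT1-Db1, RT1-Da and RT1-Ba most abundant) were found in 64 members and summed to 0 to 4744 CPM. Genes of survival and apoptosis (6, led by Bcl2a1 and Bax, with Bcl2 and Fas at 0) summed to 253 to 1203 CPM. In the group comparisons at 10 members per sample, 0 genes of these lists passed, of 14, 7, 5, 5 and 2 tested.

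Proliferation genes were found in 132 members. Summed over 14 genes they gave 662 and 283 CPM in sham 2 and sham 3, 1138, 529.9 and 1691 in LT at days 1, 3 and 7, and 651, 1390.1 and 1612 in LT_flow at the same days, with Stmn1 in 65, Pcna in 83, Hmgb2 in 62 and Mcm6 in 16 members. Top2a and Mki67, expressed in dividing cells and named after their values were seen, were each found in 5 of 188. All 5 members with Top2a were from LT_flow days 3 and 7. In summed mast-like members, Mki67 was at 49 CPM in LT day 7, and at 14.7 and 10.3 CPM in LT_flow days 3 and 7.

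To ask how members differed after transplantation, UMIs were summed per sample and tested with edgeR's quasi-likelihood test, Benjamini-Hochberg adjusted over all genes tested, at a threshold of 0.05. Samples with at least 10 members were sham 2, LT day 7 and the 3 LT_flow samples, so that LT against sham set 1 sample against 1, each assumed to vary like the other groups. A fit with at least 5 members, added after the counts were seen, held 2 sham, 3 LT and 3 LT_flow samples. The comparisons share their control samples. In the median gene, the scaling by TMM moved LT against sham from -0.08 to 0.16 on the log2 scale and LT_flow against sham from 0.02 to 0.21, in the fit of at least 10 members.

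LT day 7 against sham 2 set 1 sample against 1, with the spread taken from LT_flow, so that its p-values compare these samples and not the conditions. Of 2195 genes, 5 passed (0.228%), 2 higher and 3 lower in LT day 7, and 198 had an unadjusted p under 0.05. Rcan1, a calcineurin regulator induced by calcium signals, was lower in LT day 7 than in sham 2 (log2 fold change -4.49 ± 0.64 (SE), edgeR adjusted p = 0.00228). It stood at 3121 and 3751 CPM in sham 2 and sham 3, 0, 833 and 114 in LT at days 1, 3 and 7, and 412, 525 and 366 in LT_flow at the same days, and in other leukocytes at 12.6 to 26.9 CPM. In sham 2, 33 of 66 UMIs of Rcan1 came from 1 member, and without it the level was 1902 CPM, still above the transplanted samples. Ccl2 was lower too (log2 fold change -3.33 ± 0.64 (SE), edgeR adjusted p = 0.04), with adjusted p of 3.02e-05 to 0.555 over the alternatives, and neither gene passed with 2 sham and 3 LT samples. Over all members both genes were low in cluster 0 (Rcan1 at 76.5 CPM against 1483 and 738 in clusters 1 and 2, Ccl2 at 3113 against 58934 and 39325), and cluster 0 held 19 of 29 members in LT day 7 and 3 of 10 in sham 2. The part of this difference in cluster make-up in these values was not tested. Prss29 had 300 UMIs in LT day 7 and 0 in sham 2, at least 18.5-fold higher (edgeR adjusted p = 0.00422), and these UMIs lay in the 3 basophil-like cells of that sample. With mast-like members alone summed, Prss29 had too few UMIs to be tested. Lyz2, at least 5.43-fold higher (edgeR adjusted p = 0.04), had 77 of its 88 UMIs in 1 member. Col3a1, a fibroblast collagen, was at least 73.8-fold lower. In sham 2, 36 of its 41 UMIs came from 1 member, and the free RNA estimate was 28.8 UMIs. That estimate was scaled from genes that include Col3a1, so it cannot judge Col3a1 itself. With free RNA subtracted, Rcan1 and Prss29 passed (edgeR adjusted p = 0.00374 and 0.00816), Ccl2 and Lyz2 did not (edgeR adjusted p = 0.0611 and 0.531), and Col3a1 had too few UMIs to be tested. With mast-like members alone, Rcan1, Ccl2, Lyz2 and Col3a1 passed.

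With 3 LT and 2 sham samples, 1 of 853 genes passed (0.117%). LOC100360087, which RefSeq also lists as Ftl1, a ferritin light chain, fell (log2 fold change -2.67 ± 0.51 (SE), edgeR adjusted p = 0.0495). It stood at 1466 and 1203 CPM in sham 2 and sham 3, 268, 303 and 175 in LT at days 1, 3 and 7, and 311, 142 and 158 in LT_flow at the same days, with both sham samples above all others, and it also ranged from 127 to 1054 CPM in other leukocytes, highest in sham 2. In sham 2, 19 of 31 UMIs of LOC100360087 came from 1 member, and without it the level was 692 CPM, still above the transplanted samples. The call was lost without TMM (edgeR adjusted p = 0.109), with no filter on low counts (0.116), with at least 3 markers (0.0559), with free RNA subtracted (0.0562) and with libraries as samples (0.0574). It was also lost without sham 2, sham 3 or LT day 7 (edgeR adjusted p = 0.254, 0.0623 and 0.269). The next genes by p did not pass. Plscr1 and Pmp22 (a myelin and membrane protein) had log2 fold changes of -2.30 and -3.10, Igfbp7 had 426 and 354 CPM in sham and 0 UMIs in LT (free RNA was estimated at 10.2 UMIs against 9 observed in sham 2 and 1.75 against 5 in sham 3), and Pgk1, a glycolytic enzyme at 335, 379 and 272 CPM in LT, had no UMI in the sham members, each with an edgeR adjusted p of 0.0858. In sham 2, 8 of the 9 UMIs of Igfbp7 came from 1 member, and the free RNA rate there rests mostly on Col3a1. Rcan1 and Ccl2 were lower without passing (log2 fold changes -3.85 and -2.63, edgeR adjusted p = 0.108 and 0.237). Without LT day 7 no gene passed, and without LT day 1, LT day 3 or sham 3 there were 9, 7 and 3.

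**Figure D5:**
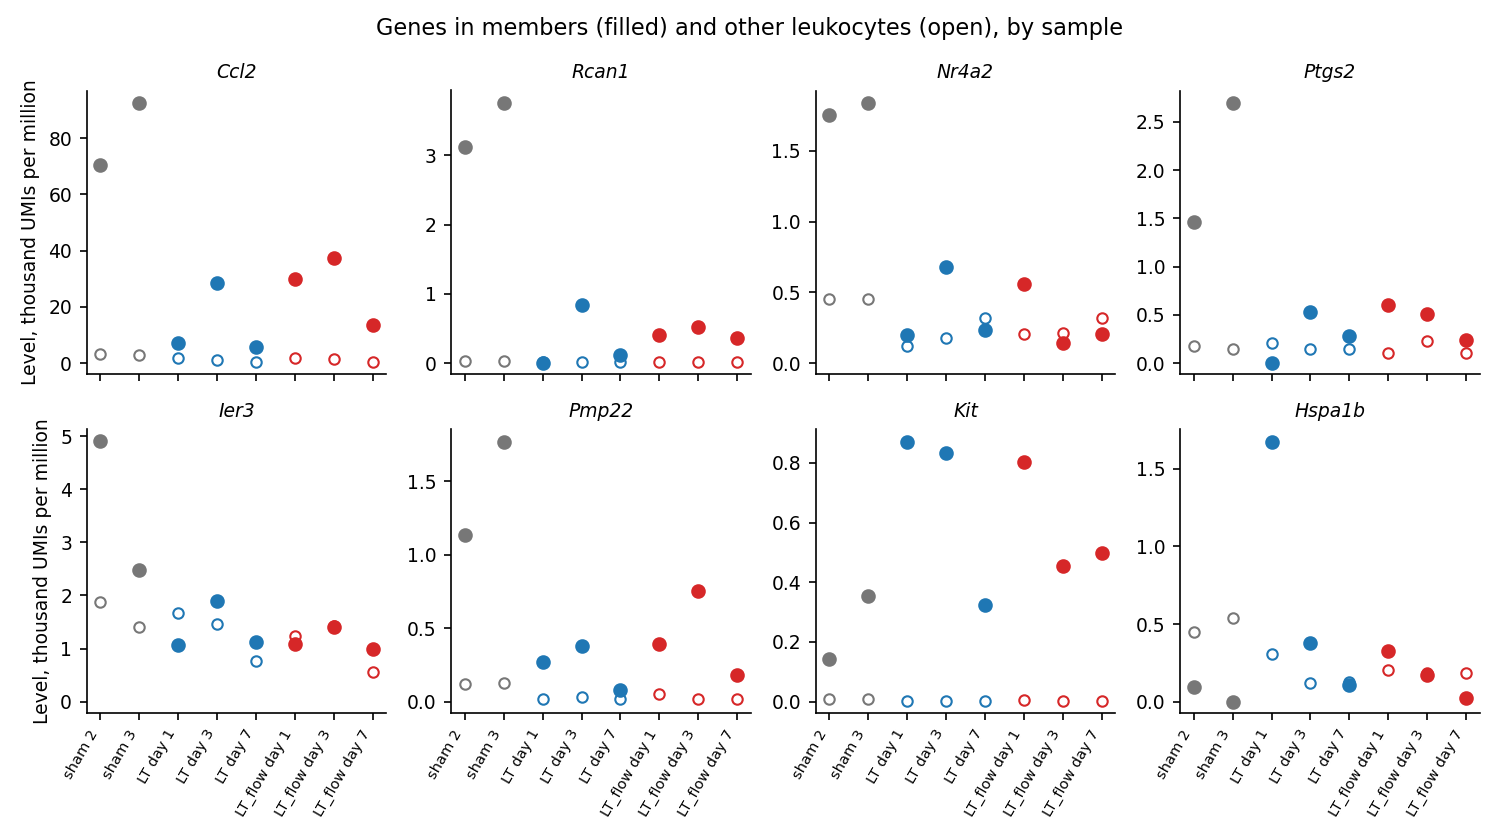
Level of 8 genes (y axis, in units of 1000 CPM, each panel with its own scale) by sample (x axis) in summed members (filled) and other Ptprc-positive leukocytes (open), gray for sham, blue for LT and red for LT_flow. For Ccl2, Rcan1, Nr4a2, Ptgs2, Ier3 and Pmp22 both sham samples lie above all transplanted members. These genes were named for small p or high level in these data, and the share of all genes with this order was not counted. For Ptgs2 the order rests on the cell that held most in sham 2. Without it sham 2 stands at 461 CPM, under LT day 3 (530 CPM) and LT_flow day 3 (511 CPM), among others. For Pmp22, 12 of 24 UMIs in sham 2 came from 1 member, and without it sham 2 falls under LT_flow day 3 (752 CPM). Other leukocytes lie near the axis for Ccl2, Rcan1 and Kit.

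LT_flow against sham 2 set 3 samples against 1, the sample with free RNA estimated at 18.5%. The p-values thus set LT_flow against that sample and not against sham. Of 2195 genes, 3 passed, all lower (0.137%). Rcan1 was lower than in sham 2 (log2 fold change -2.62 ± 0.41 (SE)), as were LOC100360087 (log2 fold change -2.61 ± 0.48 (SE)) and Col3a1 (log2 fold change -4.80 ± 0.47 (SE)). Col3a1 is 1 of the genes from which the free RNA of sham 2 was estimated. Without LT_flow day 7 no gene passed, and without LT_flow day 1 or day 3 there were 13 and 19. Ier3, an immediate early gene, and Dbi were next and did not pass (edgeR adjusted p = 0.0914 and 0.143). With 2 sham samples, LOC100360087 alone passed (log2 fold change -2.78 ± 0.45 (SE), edgeR adjusted p = 0.00754), 1 of 853 genes (0.117%). Its call was lost with no filter on low counts (edgeR adjusted p = 0.221), with at least 3 markers (0.064), and without sham 2, LT_flow day 3 or LT_flow day 7 (0.476, 0.0977 and 0.0879). Nr4a2, a nuclear receptor of the immediate early class, stood at 1749.6 and 1840.2 CPM in sham 2 and sham 3, 201, 681 and 237 in LT at days 1, 3 and 7, and 557, 142 and 209 in LT_flow at the same days, with both sham samples above all others, and did not pass (log2 fold change -2.63 ± 0.55 (SE), edgeR adjusted p = 0.0766). Ier3, Pgk1 and Krt18 followed, each with an edgeR adjusted p of 0.0932. In this fit no gene passed without LT_flow day 3 or day 7, and 3 and 2 passed without LT_flow day 1 or sham 3.

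LT_flow was first set against all 3 LT samples, where 0 of 853 genes passed in edgeR (0%) and in DESeq2, with 18 at an unadjusted edgeR p under 0.05. Of the 18, Ifi27l2b, RT1-CE10, MGC105649, Isg15 and AC098959.1 had the smallest p, and 3 and 2 genes passed without LT day 1 or LT day 3. At 10 members per sample LT_flow was set against LT day 7 alone, 1 sample of 1 day, so that the p-values compare LT_flow with that sample and not with LT. There 6 of 2195 genes passed, all lower in LT_flow (0.273%), and 1 in DESeq2. The 6 were Gzmm, Ccl5, Gzmbl3, Ifi27l2b, Prss29 and RT1-CE10. All 23 UMIs of the granzyme Gzmm came from 1 member of LT day 7, as did 170 of 172 UMIs of the chemokine Ccl5 and 32 of 33 of Gzmbl3. RT1-CE10, an MHC class I gene, was spread more widely, in 26 of 29 members. It stood at 378 and 212 CPM in sham 2 and sham 3, 1004, 529.9 and 1787 in LT at days 1, 3 and 7, and 463, 227 and 488 in LT_flow at the same days, and had a log2 fold change of -2.19 from LT day 7 to LT_flow (SE 0.43, edgeR adjusted p = 0.0366). Ifi27l2b, an interferon-induced gene, was in 9 of 29 members of LT day 7 at 622 CPM, against 94, 14.2 and 71.2 CPM in LT_flow. Other leukocytes of LT day 7 also had the highest RT1-CE10 (2263 CPM) and Ifi27l2b (1527 CPM) of all samples. Prss29, a gene of the basophil-like cells, was lower in LT_flow (log2 fold change -2.77 ± 0.46 (SE), edgeR adjusted p = 0.0124). Those cells were 3 of 29 members in LT day 7 and 6 of 129 in LT_flow. The part of single cells in these calls was not tested. Without LT_flow day 7 there was no call, and without LT_flow day 1 or day 3 there were 14.

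Day 7 was compared with day 1 over the 6 transplanted samples of both arms. Of 1464 genes, 2 passed, 1 in each direction (0.137%). Mcpt4 rose (log2 fold change 4.15 ± 0.73 (SE), edgeR adjusted p = 0.0228). In LT, 1 of 7 day 1 members and 10 of 29 day 7 members had it, and in LT_flow 5 of 61 and 14 of 43 did. Day 7 members were deeper, and of mast-like members thinned to 600 UMIs, 9.16% and 14.3% had it at days 1 and 7 in LT (unthinned 14.3% and 38.5%) and 2.08% and 13.6% in LT_flow (unthinned 8.62% and 33.3%). Mcpt4 lay almost wholly in cluster 0 (985 CPM against 7.06, 0 and 0), which held 5 of 7 and 15 of 61 members at day 1 and 19 of 29 and 24 of 43 at day 7, and the part of this make-up in the rise was not tested. In LT_flow day 7, 188 of its 253 UMIs came from 1 member. Hspa1b, a heat shock protein, fell (log2 fold change -3.55 ± 0.63 (SE), edgeR adjusted p = 0.0228). It stood at 94.6 and 0 CPM in sham 2 and sham 3, 1673, 379 and 105 in LT at days 1, 3 and 7, and 325, 170.2 and 25.4 in LT_flow at the same days, with 2 of 7 members of LT day 1 holding its 25 UMIs there, and other leukocytes ranged from 119.7 to 539 CPM. Mcpt8l3, Il4 and Apoe were next and did not pass (edgeR adjusted p = 0.434, 0.065 and 0.127). Mcpt8l3 stood at 12115 and 8433 CPM at day 1 and at 21936 and 17713 CPM at day 7 in LT and LT_flow, so day 7 was higher in both arms. In mast-like members alone, LT went from 12115 to 15335 CPM and LT_flow from 8591 to 17219 CPM. In LT day 7, 1 member held 650 of its 2504 UMIs. Of the 6 protease genes tested that the rule did not use, Mcpt4 alone passed. Its call was lost with at least 3 markers (edgeR adjusted p = 0.105), with libraries as samples (0.12), and without LT day 7, LT_flow day 1 or LT_flow day 7 (0.0758, 0.999 and 0.996). The Hspa1b call was lost with no filter on low counts (edgeR adjusted p = 0.0697), with libraries as samples (0.107), and without LT day 1, LT day 7 or LT_flow day 7 (0.0879, 0.155 and 0.23). Without LT day 7 no gene passed, without LT day 3 or LT_flow day 3 there were 29, and leaving out LT day 1, LT_flow day 1 or LT_flow day 7 gave 7, 6 and 5.

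Whether members changed more than other leukocytes between sham and LT was tested as an interaction with sample as a block, in 2 sham and 3 LT samples. Of 238 genes, 0 passed in edgeR and in DESeq2 (0%), with 17 and 24 at an unadjusted p under 0.05. The genes with the smallest p were Serpinb1a, a protease inhibitor, and Rcan1. The log2 fold change in members minus that in other leukocytes was -2.82 ± 0.69 (SE) for Serpinb1a and -3.68 ± 0.95 for Rcan1, each with an edgeR adjusted p of 0.442. Serpinb1a stood at 8039 and 5449.8 CPM in sham 2 and sham 3, 3481, 5829 and 2435 in LT at days 1, 3 and 7, and 3848, 7234 and 2721 in LT_flow at the same days in members, and in other leukocytes at 200.2 and 191 in sham and 1402, 782 and 262 in LT. Plscr1, Gch1, which makes a cofactor of serotonin synthesis, and Pla2g7 followed, each with an edgeR adjusted p of 0.595. Without LT day 1, 6 genes passed.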

How the data were processed

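Single-cell RNA of rat bile duct was measured in 9 samples by 10x Genomics 3' sequencing. The authors deposited raw UMI counts per gene and barcode. Their processing notes name Cell Ranger 5.0.1 and Seurat 3.2.0, and the genome build was not given in the sources used here. One library of LT_flow day 3 was not analysed here. Kept cells were chosen as given above, without correction for free RNA. Members were clustered on 1000 variable genes, 15 principal components and 10 neighbours (Leiden resolution 0.5, scanpy 1.11.5), and named from marker lists. Counts were summed per sample and tested with edgeR 4.0.16 (TMM, filterByExpr, robust glmQLFit), with DESeq2 1.42.0 as an alternative. Day 7 against day 1 and the interaction used samples of at least 5 members, since at 10 the designed fit could not be made. The scripts were tested on simulated data. Shares were compared by exact permutation. Named were the 20 leading genes, up to 10 called genes each way or else the 5 of smallest p, and per list the 4 most abundant and each called gene. The results of 2 gene lists are not reported here. Members, lists and tests were chosen with earlier results of these data known.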

Additional observations from a re-analysis of the deposited data

Results flagged for a closer look

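The share of members among kept cells moved in opposite directions in the transplanted arms between day 1 and day 7. It was 0.0341 percentage points higher in LT (0.0508% to 0.0848%) and changed by -0.0964 points in LT_flow (0.251% to 0.154%). Per 100 Ptprc-positive kept cells, both arms were lower at day 7 (0.167 to 0.148 in LT and 0.763 to 0.282 in LT_flow). Each arm has 1 sample per day, and the difference was not tested.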

How the results depend on the processing

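Of 67 repeats of the share comparisons under an alternative, 65 kept their direction. No such test could give an exact p under 0.1 with these numbers of samples, so the threshold says nothing of stability. Per 100 Ptprc-positive cells the LT_flow and sham samples overlapped (exact permutation p = 0.6). LT against sham reversed in the other 2: by members per 100 Ptprc-positive cells (-0.18) and without sham 1 (-0.00962). Leaving out single samples moved the member share difference from -0.00962 to 0.0405 points (LT against sham), 0.095 to 0.153 (LT_flow against sham) and 0.0782 to 0.133 (LT_flow against LT), and the mast-like share difference from -13.5 to -5.17, -6.46 to -3.62 and 0.0912 to 8.42. Of 97 repeated counts of called genes, 57 moved by over 1.5 times, and of 430 repeats for single genes 53 lost the call, 40 gained one and none reversed. Causes were not tested.

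For LT against sham (5 genes at 10 members), DESeq2, no TMM and free RNA subtraction gave 3 each, no filter 19, and libraries as samples and the 5-member minimum 1 each. At 5 members (1 gene), DESeq2 and no filter gave 13 each, doublet-scored cells left out 2, these groups alone 7, and no TMM, at least 3 markers, free RNA subtraction and libraries as samples 0. For LT_flow against sham (3 genes), no filter gave 14, mast-like members 5, these groups alone 10 and the 5-member minimum 1. At 5 members (1 gene), DESeq2 and libraries as samples gave 5 each, no filter 15, these groups alone 12 and at least 3 markers 0. For LT_flow against LT (6 genes), DESeq2 gave 1, no filter and these groups alone 13 each, doublet-scored cells left out 12, libraries as samples 2 and the 5-member minimum 0. At 5 members (0 genes), no filter gave 3. For day 7 against day 1 (2 genes), no filter gave 5, at least 3 markers 1, mast-like members 4 and libraries of at least 10 members as samples 14. Leaving out 1 sample gave 0 to 9 genes (LT against sham, 5 members), 0 to 19 and 0 to 3 (LT_flow against sham, at 10 and 5), 0 to 14 and 0 to 3 (LT_flow against LT, at 10 and 5), 0 to 29 (day 7 against day 1) and 0 to 6 (members against other leukocytes).

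Replicate numbers are days. Deviations of same-day LT and LT_flow samples correlated at 0.01, -0.04 and 0.16 over 853 genes, so the numbers were not shown to pair samples. With day as a replicate block, LT_flow against LT gave 0 of 1464 genes by edgeR, with 37 at an unadjusted p under 0.05. At 10 members, neither group was set against sham with at least 3 markers, without doublets or without sham 2. LT against sham was not run with these groups alone or without LT day 7, nor LT_flow against LT with the block or without LT day 7, since an arm had no sample left or too few samples remained. Sums of 6 to 10 members, with a floor of 142 to 227 CPM, limit sham 2, sham 3 and LT days 1 and 3.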
